A study of Mus musculus with 13 samples.

Results

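The comparison concerns 7 distal colorectal tumors of mice, chosen by their measured levels of 2 genes, Hoxb13 and Wnt10a, and divided by Wnt10a, a secreted ligand of the Wnt pathway. The 13 arrays of the series hold 9 tumors. Tumor arrays were taken as distal where Hoxb13, a homeobox gene of the most posterior gut, had a level of 0 or more, and 7 of the 9 met this. The 7 were then split at a Wnt10a level of 3, which gave 4 Wnt10a-high and 3 Wnt10a-low tumors. A level here is the log2 processed signal of a probe minus the log2 of the 75th percentile of its array, and each gene is represented by its brightest probe.

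Wnt ligands bind Frizzled and LRP receptors, which stops a destruction complex containing the Apc protein from degrading beta-catenin. Beta-catenin then acts with TCF and LEF factors on target genes, among them Axin2, Nkd1, Notum and Sp5, several of which are feedback inhibitors of the pathway. Loss of Apc turns the same targets on without a ligand and starts most intestinal tumors. The wall around the epithelium holds smooth muscle and enteric neurons, while the epithelium matures into absorptive colonocytes, goblet cells and enteroendocrine cells.

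All animals were of the CPC-Apc strain (genotype CDX2P-NLS Cre;Apc+/loxP), in which a CDX2 promoter drives the Cre recombinase, so that 1 Apc allele is lost in cells where that promoter is active. The Wnt10a-high tumors were control tumors 3, 4, 6 and 7. The Wnt10a-low tumors were microRNA tumors 1 and 2, which are both of the study's tumors from microRNA-treated mice, and control tumor 2. Control tumors 1 and 5 were not distal by Hoxb13, and 4 arrays of normal tissue (2 microRNA, 2 control) complete the series. Treated mice received miR-200c, miR-302a to miR-302d and both strands of miR-369 by tail vein on carbonate apatite particles, 25 µg of each microRNA, with 3 injections a week, 24 in all, beginning when the mice were 8 weeks old. Control mice received a negative control microRNA under the treatment protocol, and only a short description code on the control arrays marks this. No label ties a sample to a mouse, so the p-values below measure only the spread between these samples, which may be technical. Because 2 of the 3 Wnt10a-low tumors were treated and none of the Wnt10a-high tumors was, low Wnt10a and the microRNA treatment cannot be told apart in those 2 tumors, and control tumor 2 alone shows the low side without the treatment.

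The mature sequences of the injected microRNAs for which RefSeq (build GRCm38.p6) gave an entry are shown because they define the treatment that overlaps with the low side. Capitals mark the seed, bases 2 to 8, which pairs with target messages. The strand of miR-200c and of miR-302 is not named in the labels, and the 3p strand is shown. Among the 6 sequences there were 5 different seeds: miR-302b and miR-302d shared 1, and that of miR-302c is the same run of letters shifted by a base.
mmu-miR-200c-3p (chr6:124718324-124718346, minus strand): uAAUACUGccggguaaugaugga
mmu-miR-302b-3p (chr3:127545275-127545297, plus strand): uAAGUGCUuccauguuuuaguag
mmu-miR-302c-3p (chr3:127545406-127545427, plus strand): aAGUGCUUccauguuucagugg
mmu-miR-302d-3p (chr3:127545665-127545687, plus strand): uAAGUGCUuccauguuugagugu
mmu-miR-369-3p (chr12:109743466-109743486, plus strand): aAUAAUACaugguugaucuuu
mmu-miR-369-5p (chr12:109743431-109743452, plus strand): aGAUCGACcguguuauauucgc

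The values of the 2 genes that made the split are a description and were not tested. Wnt10a (NM_009518; probe at chromosome 1, 74850633 to 74850692, build mm9) had levels of 4.35, 3.38, 5.32 and 4.14 in Wnt10a-high control tumors 3, 4, 6 and 7, against 2.08 and 1.38 in microRNA tumors 1 and 2 and 1.81 in control tumor 2. The tumors nearest to the threshold were control tumor 4 at 3.38 and microRNA tumor 1 at 2.08. Normal tissue had Wnt10a levels between -5.07 and -2.57, so the Wnt10a-low tumors lay above all 4 normal arrays as well. Hoxb13 (NM_008267; probe at chromosome 11, 96057854 to 96057913, build mm9) lay between 6.17 and 6.64 in all 7 distal tumors, and at -1.56 and -4.53 in control tumors 1 and 5. In normal tissue it ran from -0.49 to 6.35, so the normal arrays are not all matched to the distal tumors by region.

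**Figure D1:**
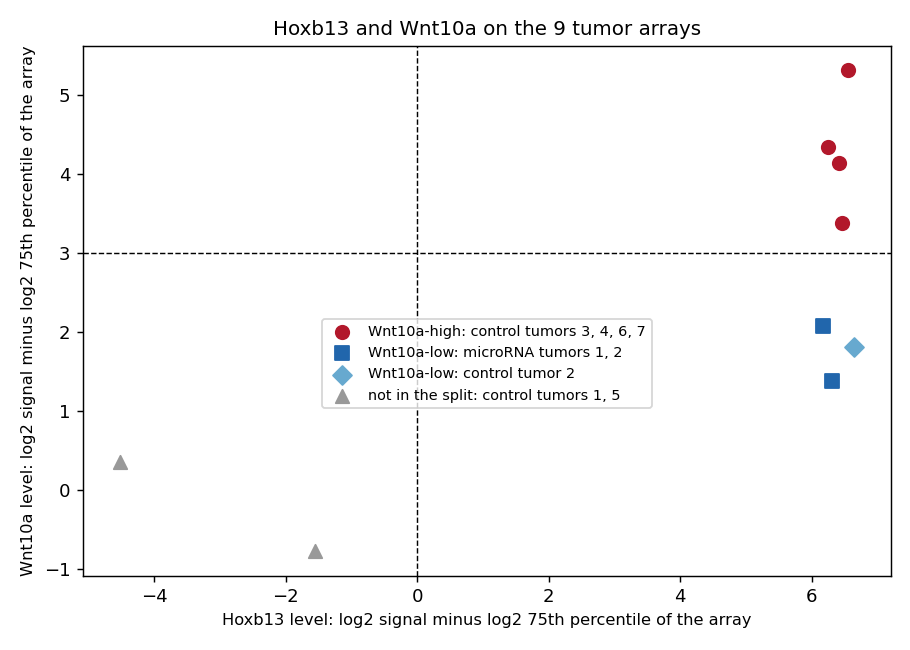
Wnt10a level (y axis) against Hoxb13 level (x axis) on the 9 tumor arrays, both as log2 signal minus the log2 75th percentile of the array, with dashed lines at the thresholds of 3 and 0. The 4 Wnt10a-high tumors lie between 3.38 and 5.32 and the 3 Wnt10a-low tumors between 1.38 and 2.08, while control tumors 1 and 5 lie left of the Hoxb13 line.

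The 7 arrays had 53.7% to 57.0% of their probes well above background. They lay on 2 slides: control tumor 3 and microRNA tumor 1 on slide 2, and the other 5 on slide 1, so each slide held tumors of both sides. Control tumor 3 stood apart by Xist, the RNA of the inactive X chromosome, at 1.97 against -6.61, -6.70 and -6.82 in the other Wnt10a-high tumors and -7.18 to -5.79 in the Wnt10a-low tumors. The deposited array names carry a number whose meaning no label gives. Control tumors 4, 6 and 7 share the number 6, and the other 4 distal tumors each carry a different one. Outside the split, control tumor 5 also carries 6, and control tumor 1 shares the number 5 with control tumor 2. Among the 7 distal tumors, arrays that share the number had a consensus correlation of 0.581 (limma's duplicateCorrelation). If it marks a shared source, the 4 Wnt10a-high arrays are not 4 independent samples and the p-values below are too small, and no label settles this.

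Across 25350 genes or transcripts other than those 2, 38 differed between Wnt10a-high and Wnt10a-low tumors (limma, Benjamini-Hochberg adjusted p under 0.05), or 0.15% of those tested. Of these, 32 were lower in the Wnt10a-high tumors (0.126% of those tested) and 6 were higher (0.0237%). An unadjusted p under 0.05 was reached by 3455. Groups that did not overlap were more frequent: 1732 genes (6.83%) were lower, and 1600 (6.31%) higher, in every Wnt10a-high tumor than in any Wnt10a-low tumor. Among the called genes that belonged to one of the 39 gene lists examined were Myh11 and Synpo2 of smooth muscle and the secreted Wnt inhibitor Sostdc1, all lower.

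The number of genes called rests on single arrays. It was 63 without control tumor 3, 15 without control tumor 4, 3 without control tumor 6, 1 without control tumor 7, 86 without microRNA tumor 1, 1 without microRNA tumor 2 and 4 without control tumor 2. Of the 38 genes, 26, 8, 3, 1, 28, 1 and 4 were still among those called, in the same order. A fit with slide as a blocking term called 83 genes, the 5 arrays of slide 1 by themselves gave 218, and with the number in the array name as a random block 9, of which 8 were lower. Of the 32 genes that fell, 23 were not well above background on any Wnt10a-high array, so their difference is given as a bound. For these, "at least" sets the Wnt10a-low mean against each Wnt10a-high array's lowest signal flagged well above background, or the gene's own if higher. This bound is lenient and holds for the reported processing only. Across the other settings the log2 difference went down in size to -1.52 for Pdyn, -1.54 for Slc15a2 and -1.41 for Cilp.

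Of the genes that fell, those known from neurons are given first; they were taken from the called genes and form no list. Pdyn, which encodes the precursor of the dynorphin opioid peptides, had levels of -6.63, -6.60, -6.72 and -6.50 in Wnt10a-high control tumors 3, 4, 6 and 7, against -2.52 and -1.42 in microRNA tumors 1 and 2 and -1.95 in control tumor 2. It was not well above background on any Wnt10a-high array and was on all 3 Wnt10a-low arrays. Its means were -6.61 ± 0.09 (SD, n = 4) and -1.96 ± 0.55 (SD, n = 3), at least 6.80-fold lower in the Wnt10a-high tumors (limma adjusted p = 0.00493). Here, and for the other genes dim on that side, the Wnt10a-high SD is a spread of background signal. Their p-values rest partly on it, and after normexp background correction 0 genes were called lower. In normal tissue Pdyn lay between -3.14 and -1.84, in the range of the Wnt10a-low tumors or just under it. Outside the split it was -3.13 in control tumor 1 and -6.44 in control tumor 5.

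Grp, which encodes gastrin-releasing peptide, a neuropeptide, averaged -6.57 ± 0.12 in Wnt10a-high and -2.87 ± 0.91 in Wnt10a-low tumors (SD, n = 4 and 3), at least 3.63-fold lower (limma adjusted p = 0.0292). It was not well above background on any of the 4 Wnt10a-high arrays and was on all 3 Wnt10a-low arrays. Nefl, the light neurofilament chain, averaged -6.63 ± 0.20 against -3.19 ± 0.51, at least 2.90-fold lower (limma adjusted p = 0.0121). Kcnip4, which binds voltage-gated potassium channels, averaged -6.80 ± 0.12 against -3.43 ± 0.48, at least 2.46-fold lower (limma adjusted p = 0.0111).

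Of the smooth muscle list, Myh11 and Synpo2 fell. Myh11, the heavy chain of smooth muscle myosin, had levels of -0.04, 0.29, -0.04 and -0.08 in Wnt10a-high control tumors 3, 4, 6 and 7, against 1.63 and 2.35 in microRNA tumors 1 and 2 and 2.79 in control tumor 2. Every array measured it, the groups did not overlap, and the difference was -2.23 ± 0.29 on the log2 scale (SE; limma adjusted p = 0.0482). Synpo2, an actin-binding protein of muscle, had levels of -1.30, -1.12, -2.20 and -2.03 in the Wnt10a-high tumors, against 0.52 and 0.87 in microRNA tumors 1 and 2 and 1.21 in control tumor 2. Its difference was -2.53 ± 0.33 (log2, SE; limma adjusted p = 0.0482) by the brightest of 3 probes, which ranged from -2.53 to -0.80. Normal tissue lay higher still for both, at 3.18 to 4.67 for Myh11 and 2.29 to 3.57 for Synpo2.

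Other called genes known from muscle, taken from the called genes and not from a list, follow. Bves, a Popeye-domain membrane protein of muscle, averaged -6.78 ± 0.13 in Wnt10a-high and -2.76 ± 0.55 in Wnt10a-low tumors, at least 3.92-fold lower (limma adjusted p = 0.00815). Chrm2, a muscarinic acetylcholine receptor through which nerves drive smooth muscle, averaged -6.67 ± 0.28 against -3.68 ± 0.47, at least 2.07-fold lower (limma adjusted p = 0.0172). Sln, sarcolipin, a regulator of the calcium pump of muscle, averaged -6.90 ± 0.20 against -3.80 ± 0.56, at least 1.90-fold lower (limma adjusted p = 0.0172). Hand1, a transcription factor of heart and smooth muscle development, averaged -6.84 ± 0.17 against -4.18 ± 0.32, at least 1.47-fold lower (limma adjusted p = 0.0121). None of these 4 was well above background on any Wnt10a-high array. Among the genes called but outside the naming rule, chosen after their values were seen, Pgm5, a muscle junction protein, and Popdc2, another Popeye-domain protein, were measured on all 7 arrays and differed by -2.33 ± 0.25 and -2.39 ± 0.31 (log2, SE; limma adjusted p = 0.0292 and 0.0482). Penk, the precursor of the enkephalin opioid peptides, and Ptgis, prostacyclin synthase, chosen in the same way, differed by -2.41 ± 0.31 and -2.13 ± 0.23 (log2, SE; limma adjusted p = 0.0482 and 0.0295).

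The remaining large falls were of other kinds. Slc15a2, a peptide transporter, averaged -6.24 ± 0.50 in Wnt10a-high and -1.85 ± 0.70 in Wnt10a-low tumors, at least 7.36-fold lower (limma adjusted p = 0.0172). Cilp, a matrix protein first known from cartilage, had -4.50, -4.97, -6.54 and -5.11 in the Wnt10a-high tumors, against -1.72 and -1.58 in microRNA tumors 1 and 2 and -1.67 in control tumor 2, at least 7.88-fold lower (limma adjusted p = 0.0482). None of the Wnt10a-high values of Cilp was well above background, so they are not ranked. Otc, an enzyme of the urea cycle, was at least 3.50-fold lower, Vat1l at least 2.57-fold and Cyp4b1, a cytochrome P450, at least 2.15-fold (limma adjusted p = 0.0361, 0.0482 and 0.0292). Each of these 3 was measured on all Wnt10a-low arrays and on no Wnt10a-high array.

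Only 6 genes were called higher in the Wnt10a-high tumors. Bpifb5, a secreted protein with a BPI fold, had levels of 0.64, -0.37, 1.76 and 0.91 in Wnt10a-high control tumors 3, 4, 6 and 7, against -5.15 and -3.35 in microRNA tumors 1 and 2 and -3.39 in control tumor 2. It was measured on all 4 high and 2 of the 3 low arrays, and differed by 4.70 ± 0.60 (log2, SE; limma adjusted p = 0.0482). Bpifb5 was also high in the tumors left out by Hoxb13, at 1.69 and 2.49 in control tumors 1 and 5. Its level in normal tissue varied widely, at 1.15 and 0.14 on the microRNA arrays and -4.68 and -6.06 on the control arrays. The mean level of the Paneth cell genes also differed there, at 6.48 and 5.35 on the microRNA arrays and -0.53 and 0.38 on the control arrays. Treatment and gut region of the normal tissue cannot be told apart. Sox11, a transcription factor of progenitor cells in many embryonic tissues, had -0.58, -1.37, 0.13 and -0.82 in the Wnt10a-high tumors, against -3.81 and -3.59 in microRNA tumors 1 and 2 and -3.09 in control tumor 2. Its difference was 2.84 ± 0.36 (log2, SE; limma adjusted p = 0.0482), and its levels of -5.30 and -5.67 in control tumors 1 and 5 and -4.77 to -3.93 in normal tissue were below all 7 distal tumors.

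Chil1, a chitinase-like protein secreted by inflamed epithelium and macrophages, had -0.78, -1.07, -1.57 and -0.75 in the Wnt10a-high tumors, against -3.46 and -3.91 in microRNA tumors 1 and 2 and -4.24 in control tumor 2. It differed by 2.83 ± 0.28 (log2, SE; limma adjusted p = 0.0275), and every distal tumor measured it. Olfr224, an olfactory receptor gene, averaged -1.05 ± 0.31 against -5.43 ± 0.77 and was at least 13.1-fold higher (limma adjusted p = 0.0147). Klhl14, of the kelch-like family, averaged -3.08 ± 0.62 against -6.44 ± 0.58 and was at least 3.23-fold higher (limma adjusted p = 0.0473). Neither Olfr224 nor Klhl14 was well above background on any Wnt10a-low array. Across the other settings their log2 differences went down to 1.99 and 0.79, so these bounds too hold for the reported processing only. The sixth, BC018473, differed by 1.66 ± 0.21 (log2, SE; limma adjusted p = 0.0482) and was measured on all 7 arrays. In control tumors 1 and 5, Chil1 was at -3.73 and 0.95 and Olfr224 at -6.36 and -1.03. Klhl14 was at -6.21 and -5.67 there, and BC018473 at -3.63 and -1.61.

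Among genes that were higher and met the other conditions of the naming rule, the next 4 by unadjusted p, none of which passed, were Btbd17, the homeobox gene Irx5, the neural adhesion gene Cntn3 and Dach2, a transcription cofactor. Btbd17 differed by 1.77 ± 0.24, Cntn3 by 3.52 ± 0.50 and Dach2 by 2.84 ± 0.43 (log2, SE; limma adjusted p = 0.0537, 0.0647 and 0.0838). Irx5 was not measured on any Wnt10a-low array, with a bound of at least 5.27-fold (limma adjusted p = 0.0647). In all 4, each Wnt10a-high tumor lay above each Wnt10a-low tumor.

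**Figure D2:**
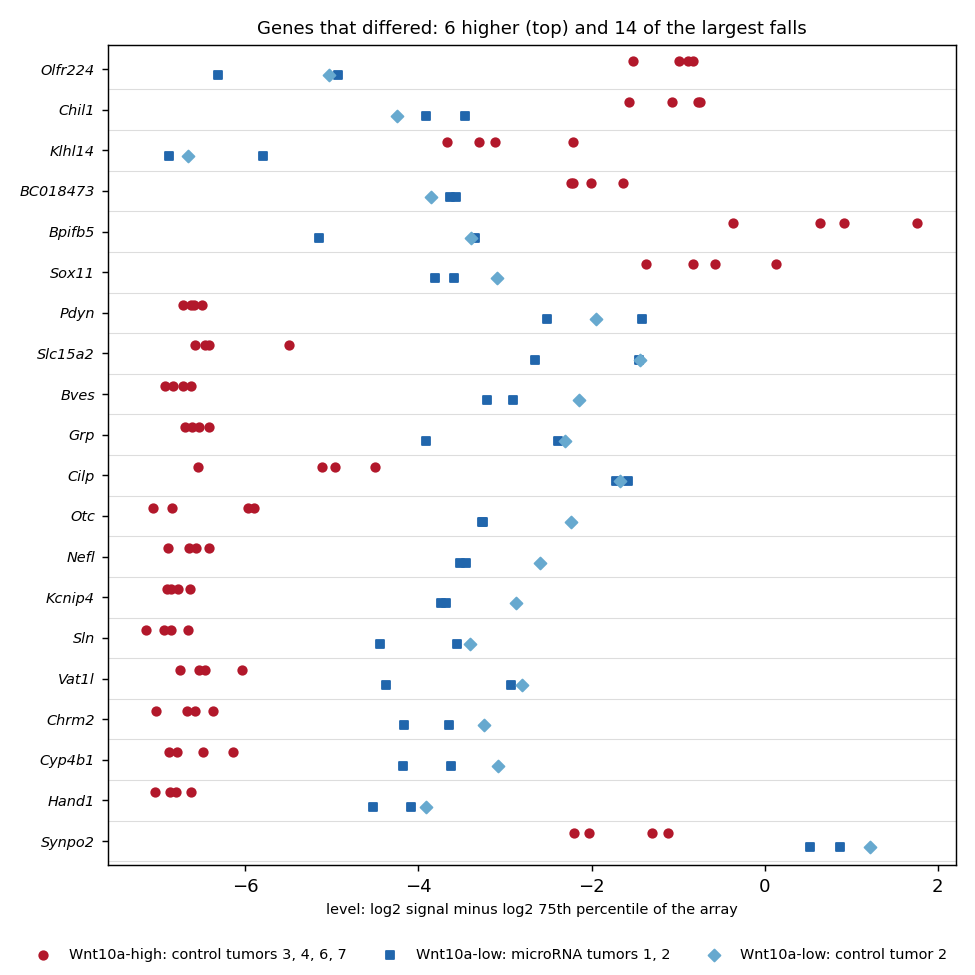
Levels (x axis, log2 signal minus the log2 75th percentile of the array) of the 6 genes called higher and of 14 genes among the largest falls, 1 row a gene, with the Wnt10a-high tumors above the Wnt10a-low tumors in each row and 1 point a tumor. The 2 sides do not overlap in any row, microRNA tumors and control tumor 2 lie together on the low side, and most falling genes have all 4 Wnt10a-high points at the dim end of the arrays.

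The Wnt10a-high tumors were also compared with control tumor 2, so that only control tumors enter the difference. The low arm is then 1 sample with no spread of its own, and the residual spread of this fit still includes microRNA tumors 1 and 2: 13 genes passed when either of them was left out. The comparison shares the Wnt10a-high arrays with the one above. Bves (-4.62), Nefl (-4.03) and Kcnip4 (-3.92) passed, all lower in the Wnt10a-high tumors (log2 differences; limma adjusted p = 0.0322 for each), or 0.0118% of the genes tested, and 0 passed as higher (0%). At an unadjusted p under 0.05 there were 2235 genes. For Pdyn this difference was -4.66 (limma adjusted p = 0.0694), for Myh11 -2.76 (0.117) and for Bpifb5 4.13 (0.283).

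Within the low side, microRNA tumors 1 and 2 were set against control tumor 2. No gene passed (0% of those tested, smallest limma adjusted p = 0.340), and 437 had an unadjusted p under 0.05. With 2 arrays against 1 this says little about genes that may differ. The treated tumors lay below control tumor 2 by the fitted difference in Bves, Nefl and Kcnip4, at -0.91, -0.89 and -0.84 (log2). These genes were picked for a high level in control tumor 2, so this direction is favored by the choice. For other genes named above, microRNA tumors minus control tumor 2 was -0.01 for Pdyn, -0.80 for Myh11, -0.52 for Synpo2, -0.86 for Bpifb5 and 0.56 for Chil1 (log2).

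All 13 smooth muscle markers were lower on average in the Wnt10a-high tumors, by 0.73 to 2.82 on the log2 scale in size, with a median of -1.89 beside 0.02 over all genes tested. The groups did not overlap for 11 of the 13 (6.83% over all genes), and 2 passed (Myh11 and Synpo2). Des, the intermediate filament desmin, had -1.99, -1.03, -2.46 and -1.82 in the Wnt10a-high tumors, against 0.18 and 0.73 in microRNA tumors 1 and 2 and 1.28 in control tumor 2, a difference of -2.55 that did not pass (limma adjusted p = 0.0838). Synm, synemin, which links desmin to the cell membrane, differed by -2.42 with the same adjusted p. The mean level of the 13 markers was 0.43, 0.34, -0.37 and -0.09 in Wnt10a-high control tumors 3, 4, 6 and 7, against 1.53 and 1.88 in microRNA tumors 1 and 2 and 2.21 in control tumor 2. In normal tissue it was 2.93 to 4.07. In the tumors outside the split it was 2.08 in control tumor 1 and 0.44 in control tumor 5. In pieces of whole tissue such as these, fewer cells of a type and less RNA per cell cannot be told apart.

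The median of the smooth muscle markers was -1.89 in the fit blocked by slide and -2.13 in slide 1 by itself, and on slide 2, control tumor 3 minus microRNA tumor 1, it was -1.04. Against control tumor 2 alone it was -2.14, and for microRNA tumors minus control tumor 2 it was -0.52. Fibroblast and matrix genes had smaller differences, with a median of -0.29 over 17 genes and 2 lower without overlap (6.83% over all genes). Endothelial markers had a median of -0.19 over 12.

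Of 13 enteric neuron and glia markers, 11 were lower on average in the Wnt10a-high tumors, with a median of -1.20. The sides did not overlap for 5, all lower (6.83% over all genes), and 1 passed. Prph, peripherin, the intermediate filament of peripheral neurons, had -3.76, -4.76, -4.27 and -4.34 in the Wnt10a-high tumors, against -2.61 and -1.85 in microRNA tumors 1 and 2 and -1.46 in control tumor 2 (difference -2.31, limma adjusted p = 0.0729). Vip, vasoactive intestinal peptide of enteric neurons, had -2.46, -3.66, -6.86 and -4.67, against -1.11 and -0.97 in microRNA tumors 1 and 2 and -0.87 in control tumor 2 (limma adjusted p = 0.185). S100b of glia differed by -2.86 (limma adjusted p = 0.155). The list's median was -1.14 when blocked by slide, -1.48 within slide 1 and -1.15 on slide 2. Normexp background correction reduced it to -0.44.

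**Figure D3:**
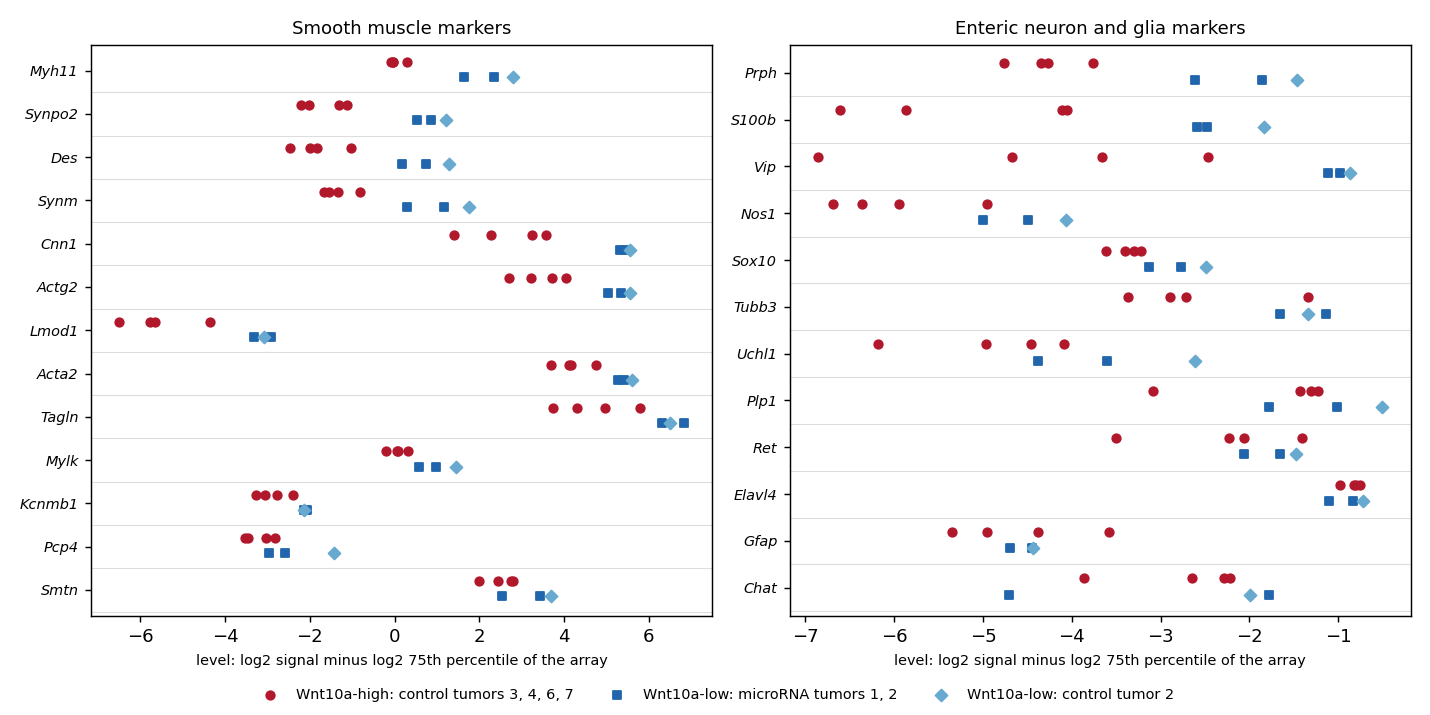
Levels (x axes, log2 signal minus the log2 75th percentile of the array) of the 13 smooth muscle markers (left) and 12 of the 13 enteric neuron and glia markers (right), ordered by unadjusted p, with the Wnt10a-high tumors above the Wnt10a-low tumors in each row. The Wnt10a-high points lie left of all Wnt10a-low points for 11 smooth muscle markers and 4 of the enteric markers shown, and control tumor 2 is often the highest of the low side.

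The Wnt pathway genes other than Wnt10a were then followed from ligands to targets. Of 14 measured Wnt ligands, 9 were higher and 5 lower on average in the Wnt10a-high tumors, with a median of 0.04, and none passed. Wnt6, whose probe lies close to that of Wnt10a (probe at chromosome 1, 74831461 to 74831520, build mm9), was the 1 ligand without overlap (6.31% higher over all genes). It had 3.07, 1.97, 3.74 and 2.65 in Wnt10a-high control tumors 3, 4, 6 and 7, against 0.96 and 0.56 in microRNA tumors 1 and 2 and 0.59 in control tumor 2. The difference of 2.15 ± 0.40 (log2, SE) had a limma adjusted p of 0.119. Wnt6 was 2.26 against control tumor 2 alone and 0.17 for microRNA tumors minus control tumor 2.

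Other ligands overlapped between the sides. Wnt5a, a ligand of the beta-catenin-independent branch, averaged 1.65 ± 0.22 in Wnt10a-high and 1.54 ± 0.28 in Wnt10a-low tumors. Wnt5b differed by 0.50 ± 0.24 and Wnt7a by 1.52 ± 0.67 (log2, SE; limma adjusted p = 0.43 and 0.374). Wnt2b and Wnt8b were not well above background on any Wnt10a-high array and were on 2 and 1 of the 3 Wnt10a-low arrays. No fold is given for them (limma adjusted p = 0.286 and 0.407).

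Among 18 receptors and R-spondins, 2 were without overlap higher and 3 lower (6.31% and 6.83% over all genes), and none passed. Fzd10, a Frizzled receptor, had 1.30, 0.71, 3.03 and 1.89 in the Wnt10a-high tumors, against -1.08 and -0.99 in microRNA tumors 1 and 2 and -0.68 in control tumor 2 (difference 2.65, limma adjusted p = 0.124). Fzd3, also a Frizzled, differed by 1.27 (limma adjusted p = 0.168). R-spondins are secreted factors that keep Frizzled receptors on the surface. Of these, Rspo3 had -1.97, -2.07, -4.22 and -2.56, against -0.28 and -0.81 in microRNA tumors 1 and 2 and -0.74 in control tumor 2 (difference -2.09, limma adjusted p = 0.176), and Rspo1 differed by -3.01 (limma adjusted p = 0.141).

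Of 14 secreted Wnt inhibitors, Sostdc1 passed. Sostdc1, which blocks Wnt co-receptors and BMPs, was not well above background on any Wnt10a-high array and was on 2 of 3 Wnt10a-low arrays. It was at least 1.58-fold lower (limma adjusted p = 0.0292). Sfrp4, a decoy for Wnt ligands, had -3.64, -4.28, -4.61 and -4.28 in the Wnt10a-high tumors, against -0.97 and -2.21 in microRNA tumors 1 and 2 and -1.78 in control tumor 2 (difference -2.55, limma adjusted p = 0.057). Notum, an enzyme that inactivates Wnt ligands and is itself a Wnt target, had 4.57, 4.33, 5.32 and 4.92, against 3.39 and 3.74 in microRNA tumors 1 and 2 and 3.34 in control tumor 2 (difference 1.30, limma adjusted p = 0.144). Apcdd1, another inhibitor that is a target, differed by 2.56 (limma adjusted p = 0.155). Of the 14 inhibitors, 4 were without overlap lower and 3 higher (6.83% and 6.31% over all genes), with a median of 0.01.

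Wnt target genes were higher on average in the Wnt10a-high tumors for 23 of 25 genes, with a median of 0.88 beside 0.02 over all genes tested, and 12 did not overlap (6.31% over all genes). None passed the test across all genes, and the smallest limma adjusted p was 0.108. Nkd1, a feedback inhibitor, had 4.96, 5.20, 5.86 and 5.26 in Wnt10a-high control tumors 3, 4, 6 and 7, against 3.58 and 3.87 in microRNA tumors 1 and 2 and 3.98 in control tumor 2 (difference 1.51 ± 0.25, log2, SE). Axin2, a scaffold of the destruction complex and the standard readout of the pathway, had 1.77, 2.25, 2.88 and 2.39, against 0.94 and 1.04 in microRNA tumors 1 and 2 and 1.08 in control tumor 2 (difference 1.30 ± 0.27; limma adjusted p = 0.143). Its levels in normal tissue were -1.56 to -0.66, so both sides lay above normal tissue for this gene. Rnf43, which removes Frizzled receptors, differed by 1.00 ± 0.21 (limma adjusted p = 0.148).

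Sp5, a transcription factor induced by Wnt signals, had 3.12, 3.07, 4.44 and 3.49 in the Wnt10a-high tumors, against 2.06 and 1.48 in microRNA tumors 1 and 2 and 1.29 in control tumor 2 (difference 1.92 ± 0.38; limma adjusted p = 0.13). Tnfrsf19, a receptor of the TNF family and a Wnt target, differed by 1.12 ± 0.32 (limma adjusted p = 0.21). Other targets overlapped. Lgr5, the receptor that marks crypt stem cells, had 3.20, 3.19, 2.03 and 1.79, against 2.87 and 2.20 in microRNA tumors 1 and 2 and 1.06 in control tumor 2, without an order between the sides. Myc differed by 0.50 ± 0.25 with overlap (limma adjusted p = 0.448).

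The 250 bases before the gene start were searched for the TCF/LEF core, CTTTGAT, and its reverse complement, ATCAAAG, in the RefSeq promoter table (build GRCm38.p6). It was present in 3.21% of 32851 such windows. Of the 25 measured Wnt targets 18 had an entry, and 3 had a match in at least 1 window, namely Sp5, Tnfrsf19 and Mmp7. The 3.21% is a share of windows, whereas these are counts of genes, which may have several windows, so they are unlike measures. The windows of the 2 that did not overlap between the sides are shown with the match in capitals. A match is a description of the letters and not of a bound site.
Sp5 (chr2:70474673-70474922, plus strand): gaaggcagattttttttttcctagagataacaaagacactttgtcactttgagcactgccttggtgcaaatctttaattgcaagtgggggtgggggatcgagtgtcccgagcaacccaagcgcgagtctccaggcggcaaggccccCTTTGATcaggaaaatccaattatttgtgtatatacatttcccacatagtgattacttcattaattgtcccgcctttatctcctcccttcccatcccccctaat
Tnfrsf19 (chr14:61037988-61038237, minus strand): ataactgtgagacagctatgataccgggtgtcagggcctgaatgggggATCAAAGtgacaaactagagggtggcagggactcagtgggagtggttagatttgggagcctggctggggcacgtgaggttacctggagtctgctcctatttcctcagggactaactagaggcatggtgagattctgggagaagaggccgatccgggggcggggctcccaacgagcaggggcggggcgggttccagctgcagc

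The mean level of the 25 targets was 2.69, 2.66, 3.07 and 2.71 in Wnt10a-high control tumors 3, 4, 6 and 7, against 2.10 and 1.98 in microRNA tumors 1 and 2 and 1.79 in control tumor 2, and 0.12 to 0.49 in normal tissue. Control tumors 1 and 5, outside the split, had 1.55 and 1.84. The list's median was 0.88 when blocked by slide, 0.91 within slide 1 and 0.56 on slide 2. It was 1.23 against control tumor 2 alone and 0.24 for microRNA tumors minus control tumor 2.

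**Figure D4:**
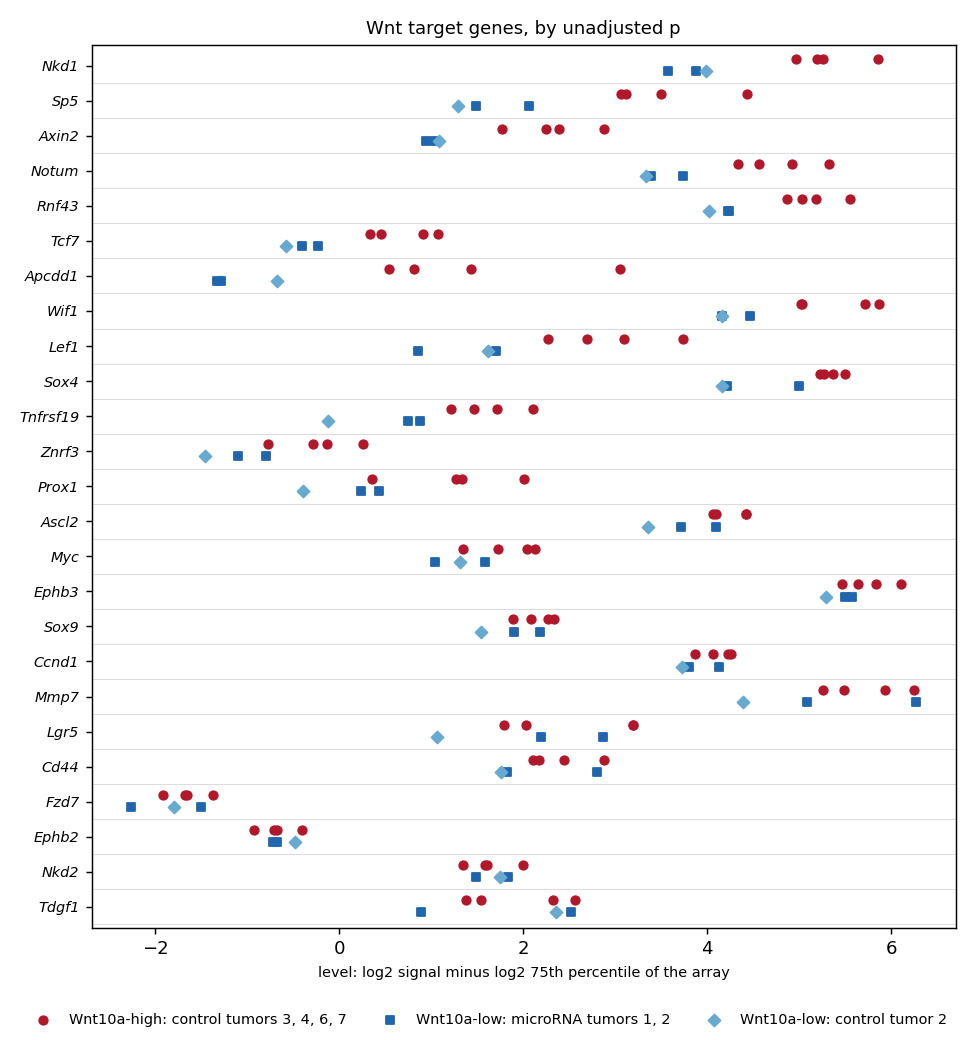
Levels (x axis, log2 signal minus the log2 75th percentile of the array) of the 25 Wnt target genes, ordered by unadjusted p, with the Wnt10a-high tumors above the Wnt10a-low tumors in each row. The Wnt10a-high points lie right of all Wnt10a-low points in the upper 12 rows, and the sides overlap in the rows below, Lgr5 and Myc included.

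Genes of mature epithelium were mostly lower on average in the Wnt10a-high tumors, and none passed. Mature colonocyte genes had a median of -1.61 over 18 genes, with 16 below 0, 9 lower without overlap and 1 higher (6.83% and 6.31% over all genes). Car1, a carbonic anhydrase of colonocytes, had 2.45, 2.82, 1.96 and 2.50 in the Wnt10a-high tumors, against 4.41 and 3.56 in microRNA tumors 1 and 2 and 4.13 in control tumor 2 (difference -1.60 ± 0.29; limma adjusted p = 0.115). Car2, its close relative, differed by -1.48 and Sult1a1, a sulfotransferase, by -2.71 (limma adjusted p = 0.128 and 0.158). The amino acid transporter Slc6a14 differed by -1.89 (limma adjusted p = 0.155).

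All 13 goblet cell genes were below 0, with a median of -1.53 and 4 without overlap (6.83% over all genes). Clca1, a secreted mucus protein, had 6.24, 5.75, 3.60 and 4.32 in the Wnt10a-high tumors, against 6.70 and 7.48 in microRNA tumors 1 and 2 and 8.00 in control tumor 2 (difference -2.42 ± 0.66; limma adjusted p = 0.197). Agr2, an enzyme that folds mucin, differed by -1.53, Zg16, a lectin of mucus, by -2.04, and Atoh1, the transcription factor of secretory cells, by -1.95 with overlap (limma adjusted p = 0.178, 0.237 and 0.237). Enteroendocrine genes had a median of -1.24 over 13, with 6 lower without overlap (6.83% over all genes). Insl5, a hormone of colonic endocrine cells, had -0.69, -0.18, -1.85 and 0.23, against 1.37 and 1.51 in microRNA tumors 1 and 2 and 1.58 in control tumor 2 (difference -2.11, limma adjusted p = 0.152). Sst, somatostatin, Scg2, secretogranin, and Tph1, which makes serotonin, differed by -2.26, -2.75 and -1.31 (limma adjusted p = 0.179, 0.192 and 0.249).

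For the colonocyte list the median was -1.56 when blocked by slide, -1.48 within slide 1 and -1.50 on slide 2. For the goblet list these were -1.62, -1.45 and -1.64. The colonocyte list's mean level was 0.17, 1.67, -0.04 and 0.96 in Wnt10a-high control tumors 3, 4, 6 and 7, against 1.73 and 2.11 in microRNA tumors 1 and 2 and 2.77 in control tumor 2, and 4.63 to 5.59 in normal tissue. The mean levels of the smooth muscle, enteric, colonocyte and Wnt target lists differed together between these tumors, and their part in one another was not tested. Paneth cell genes, antimicrobial products of the crypt base, had a median of 0.85 over 12, with 3 higher without overlap (6.31% over all genes). Defa4, a defensin, had 5.46, 3.87, 3.83 and 2.89, against 2.28 and 1.78 in microRNA tumors 1 and 2 and 1.94 in control tumor 2 (limma adjusted p = 0.194). Defensins are near-identical copies that a probe may not separate. Mptx1, a mucosal pentraxin, ran the other way (difference -2.42, limma adjusted p = 0.22). In normal tissue Mptx1 lay between 3.73 and 8.04, while Defa4 ranged from -5.84 to 4.99, so Mptx1 may not mark Paneth cells here.

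Immune lists differed in both directions on average and had no gene that passed. B and plasma cell markers had a median of -1.37 over 13, with 7 lower without overlap and 1 higher (6.83% and 6.31% over all genes). Ms4a1 (CD20), a surface protein of B cells, had -4.37, -5.00, -6.52 and -4.97 in the Wnt10a-high tumors, against -2.39 and -0.68 in microRNA tumors 1 and 2 and 0.07 in control tumor 2. It was well above background on 1 of 4 Wnt10a-high arrays and all 3 Wnt10a-low arrays (difference -4.21, limma adjusted p = 0.0909). Cr2, a complement receptor of follicular B cells, differed by -3.26, and Derl3, of plasma cells, by -1.29 (limma adjusted p = 0.155 and 0.148). Within the low side, microRNA tumors minus control tumor 2 was -1.61 for Ms4a1 and -1.93 for Cr2. The list's median was -1.46 when blocked by slide, -1.55 within slide 1 and -0.69 on slide 2.

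Neutrophil markers had a median of 0.60 over 12, with 3 higher without overlap (6.31% over all genes), and a median of 0.91 on slide 1 and 0.07 on slide 2. S100a9, a neutrophil calcium-binding protein, had 5.68, 5.78, 6.24 and 5.63, against 5.15 and 3.13 in microRNA tumors 1 and 2 and 3.91 in control tumor 2 (difference 1.77, limma adjusted p = 0.174), and its partner S100a8 differed by 1.91 (limma adjusted p = 0.186). Matrix metalloproteinases had a median of 0.63 over 11, with 3 higher without overlap (6.31% over all genes), and their median was 0.90 on slide 1 but -0.03 on slide 2. Mmp9, a gelatinase that neutrophils carry, differed by 1.60, and Mmp14, a membrane collagenase, by 0.66 (limma adjusted p = 0.2 and 0.188). Among T and NK cell markers, with a median of -0.18 over 16, Zap70, a kinase of the T cell receptor, differed by 1.64 and Nkg7, of cytotoxic granules, by -1.09 (limma adjusted p = 0.119 and 0.248). Macrophage and dendritic cell markers had a median of 0.00 over 16.

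Signals that accompany Wnt ligands in developing epithelia were examined next. Among ectodermal appendage genes, with a median of 0.02 over 12, Shh, the hedgehog ligand of epithelium, had -1.65, -3.65, -2.49 and -3.17 in the Wnt10a-high tumors, against -6.13 and -6.29 in microRNA tumors 1 and 2 and -5.36 in control tumor 2. No Wnt10a-low array measured it, and it was at least 4.08-fold higher (limma adjusted p = 0.0838). Fgf20, a growth factor of hair and tooth buds, had a bound of at least 2.25-fold higher and was measured on 3 of 4 Wnt10a-high arrays (limma adjusted p = 0.176). TGF-beta, activin and BMP genes had a median of 0.04 over 21, with 5 higher and 3 lower without overlap (6.31% and 6.83% over all genes). The BMP antagonist Chrdl1 differed by -1.93, and the ligands Bmp7 and Inhbb, an activin subunit, by 0.93 and 0.97 (limma adjusted p = 0.145, 0.155 and 0.179). The Notch target Hes5 differed by 0.87 (limma adjusted p = 0.142), in a list of 16 with a median of 0.02.

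Proliferation genes were above 0 for 23 of 23, with a median of 0.40 and 1 without overlap (6.31% over all genes). The direction differed between slides, with a median of 0.65 on slide 1 and -0.23 on slide 2, where 20 of the 23 were lower. The mean level of these genes was 2.44, 2.74, 2.54 and 2.73 in Wnt10a-high control tumors 3, 4, 6 and 7, against 2.68 and 2.12 in microRNA tumors 1 and 2 and 1.89 in control tumor 2, so microRNA tumor 1 lay within the Wnt10a-high range. Ccne1, cyclin E1, and Mcm3, a subunit of the replicative helicase, differed by 0.63 and 0.65 (limma adjusted p = 0.303 and 0.344). Crypt stem cell markers had a median of 0.37 over 13, with 2 higher and 2 lower without overlap (6.31% and 6.83% over all genes). Lrig1, a brake on EGF receptors in stem cells, differed by -1.11 (limma adjusted p = 0.237), and of the 2 probes of Msi1, an RNA-binding protein of crypts, 1 gave -1.17 and the other 0.92. Intestinal identity factors had a median of -0.72 over 11. Hnf4g, which sustains enterocytes, differed by -1.10, and Onecut2 by 1.02 (limma adjusted p = 0.162 and 0.22).

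Because the treatment lies on the low side, reported targets of the injected microRNAs were listed too. The 18 reported miR-200c targets had a median of -0.13, with 3 higher and 1 lower without overlap, and the 20 reported miR-302 targets had a median of 0.01, with 3 higher and 1 lower. Over all genes 6.31% were higher and 6.83% lower without overlap. The 1 lower in each list is near that share, and the 3 higher in each list are above it. These counts depended on the scaling. With median scaling 0 miR-200c and 1 miR-302 targets were higher without overlap (5.18% over all genes), and with no scaling 1 and 1 (5.58%). To be counted, a gene also had to be low in control tumor 2, which was not given these microRNAs. Whether the treatment had a part in these counts was not tested. None passed. Zeb1, a repressor of epithelial genes and the best known miR-200c target, had -0.10, -0.85, -0.41 and -0.38 in the Wnt10a-high tumors, against 0.09 and 0.04 in microRNA tumors 1 and 2 and 0.15 in control tumor 2 (difference -0.53 ± 0.21; limma adjusted p = 0.342). Zeb2, its relative, differed by -0.52, Tubb3, a neuronal tubulin, by -1.20 and the kinase Lats2, a reported miR-302 target, by -0.16 (limma adjusted p = 0.407, 0.31 and 0.782). For microRNA tumors minus control tumor 2 the list medians were 0.02 for miR-200c targets and 0.11 for miR-302 targets.

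**Figure D5:**
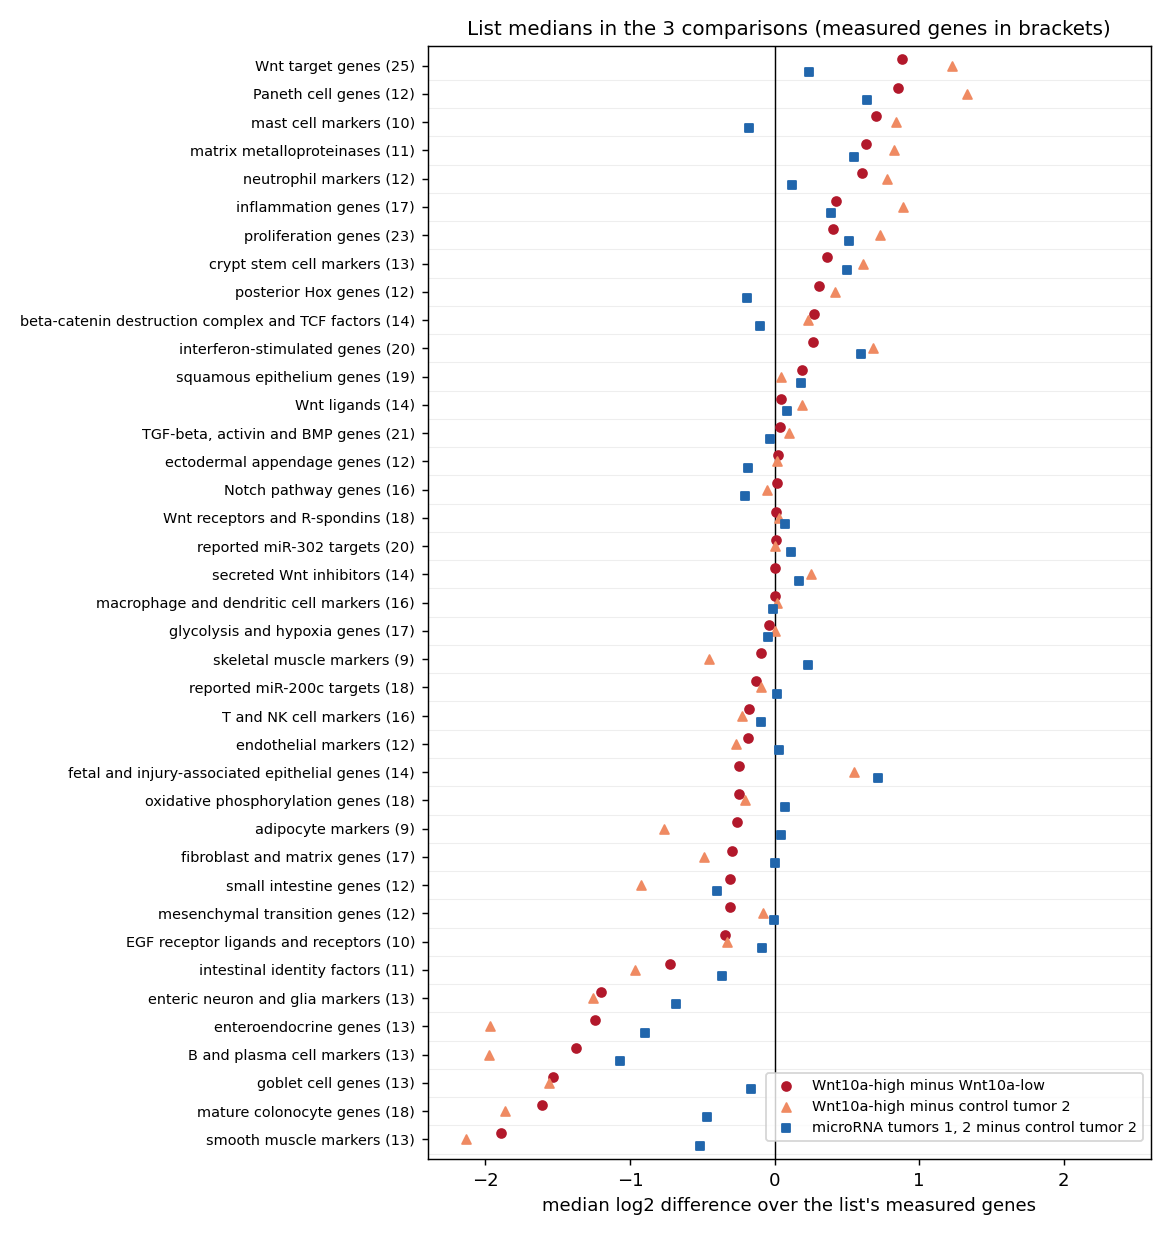
Median log2 difference (x axis) over the measured genes of each of the 39 gene lists, for Wnt10a-high minus Wnt10a-low tumors (circles), Wnt10a-high tumors minus control tumor 2 (triangles) and microRNA tumors 1 and 2 minus control tumor 2 (squares). Smooth muscle markers lie lowest at -1.89 and Wnt target genes highest at 0.88 in the first comparison, which shares its Wnt10a-high arrays with the second.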

How the data were processed

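RNA of 13 colorectal samples was hybridised to 1-colour mouse arrays (35 ng of total RNA, Cy3), per the labels' protocols. Scanner images were read by Feature Extraction 10.7.3.1, per the file headers. What the authors deposited is the linear intensity of each spot after background subtraction, with no scaling from array to array. The deposited series table held the same intensity values (largest relative difference 0).

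Control spots (3671) and flagged outlier spots were left out, and 59305 spots of 55681 probes remained. From the intensity values the log2 level over the 75th percentile of each array was computed. A probe was kept if 2 or more of the 13 arrays had it well above background, and the brightest kept probe stood for a gene. Of 23 named genes with several probes, 1 had probes of opposite sign. Others differed in size, as Nkg7 (-1.09 and -0.01), Otc (-3.52 and -1.77) and Cr2 (-3.26 and -1.64, log2). The sides were compared with limma 3.58.1 (lmFit, eBayes) in R 4.3.3 on the 7 distal tumors, with 3 group means for the comparisons with control tumor 2, and p-values were adjusted over all genes (Benjamini-Hochberg, 0.05). The procedure was tested on simulated data. Named genes were the up to 15 largest rises and falls among called genes with a symbol, no overlap and signal above background on the whole brighter side, the next genes by p up to 10 where fewer were called, up to 6 for the other comparisons, and up to 4 per list by p, with a fixed set of Wnt genes and microRNA targets. The split, the members and the lists were chosen with earlier results of these data known, so list counts are descriptions. A bound against dim arrays uses, per array, the lowest signal among probes well above background, or the probe's own if higher. That is a lenient limit, and such a bound holds for the reported processing only. Probe coordinates are those of the files (mm9), and no genome sequence of that build was used here. Alternatives were other background corrections, scalings, filters, probe rules, fits, slide and name-number blocks, and each array left out. The number of arrays limits the precision. A few genes that the naming rule picks are not reported here. Figures were drawn with matplotlib 3.10.9.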

Additional observations from a re-analysis of the deposited data

Results flagged for a closer look

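Of 103 named genes and list means examined over the 4 Wnt10a-high tumors, 4 had 1 tumor far from the other 3 (by Dixon's criterion), and chance marks about 1 in 20. Slc15a2 stood out at -5.49 in control tumor 3, against -6.42, -6.59 and -6.46 in the other Wnt10a-high tumors, none well above background. Myh11 stood out at 0.29 in control tumor 4, where the other 3 lay between -0.08 and -0.04. Dach2 stood out at -1.89 in control tumor 4, where the others lay between -0.37 and -0.14. The mean level of the Wnt target genes stood out at 3.07 in control tumor 6, where the other 3 lay between 2.66 and 2.71.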

How the results depend on the processing

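The numbers of genes called depended on the processing. Of 97 named genes, 90 kept their sign in every setting that was run, and the exceptions were all uncalled. Many of these genes were picked because the sides did not overlap. For such genes, leaving out an array or taking 1 slide could not turn the sign, so those settings do not test their direction. For Wnt10a-high against Wnt10a-low tumors (38 genes), 1 was called after normexp background correction (a higher one), 9 with no scaling between arrays, 21 without the filter on dim probes, 17 with the mean of all probes, 186 with a fit on all 13 arrays, 9 with a trended robust eBayes fit, 83 when blocked by slide, 218 on slide 1 by itself and 9 with the array-name number as a random block. Leaving out 1 array gave 1 to 86. The share lower, 84.2% in the reported fit, was 66.7% with no scaling and with the 13-array fit, 60% without control tumor 4, and 0% after normexp. Against control tumor 2 (3 genes), 0 were called after normexp, no scaling, the 13-array fit, the trended fit and slide 1 alone, 10 after quantile normalization, 7 after median scaling, 26 without the filter and 14 with the slide block, and 0 to 13 with 1 array left out. For microRNA tumors minus control tumor 2, 7 were called without the filter and 0 with 1 array left out. Median scaling moved the median of all genes to 0.2 and 0.189 in the comparisons with control tumor 2, and no scaling moved the last to -0.269. The cause was not tested.

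The enteric median was -0.44 after normexp. The list medians by slide were chosen after seeing the data: on slide 2 the medians were 0.56 for Wnt targets, -0.69 for B and plasma cells and -1.04 for smooth muscle, and the medians of proliferation genes (-0.23), matrix metalloproteinases (-0.03) and inflammation genes (-0.01) turned negative. With 1 array left out, medians ran from -2.20 to -1.65 for smooth muscle, -1.34 to -0.93 for enteric, 0.71 to 0.99 for Wnt target, -1.72 to -1.36 for colonocyte, -2.02 to -1.23 for goblet and -1.84 to -1.13 for B and plasma cell genes. Counts without overlap ran from 11 to 13, 5 to 10, 12 to 17, 9 to 15, 4 to 10 and 7 to 9 in the same order, while over all genes the shares without overlap also grew, to between 7.39% and 15.6% lower and 6.87% and 17.5% higher. Signs turned for Wnt5a without control tumor 2 (-0.05, and up to 0.23 without other arrays), and on slide 2 for Myc (-0.24), Wnt2b (0.40), Wnt5a (-0.05), Mptx1 (0.32), Zeb2 (0.14), Tubb3 (0.32) and Mcm3 (-0.23). No paired analysis was possible because the Wnt10a-high and Wnt10a-low arrays share no replicate number. Genes not well above background on a whole side have only a bound, which holds for the reported processing.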
